A study of Xenopus tropicalis with 6 samples.

Results

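Thyroid hormone genes were followed in the brain of *Xenopus tropicalis* tadpoles before metamorphosis. The set held 9 genes: the hormone receptors *thra* and *thrb*, their partner receptors *rxra*, *rxrb* and *rxrg*, the deiodinases *dio2* and *dio3*, the transporter *slc16a10* and the direct target *klf9*. A gene model was taken where its symbol in the annotated expression table equalled a member, or a member with a point and a number. This found 8 of the 9 genes among 15076 gene models tested, and no line of that table carried the symbol *thra*, so no value is given for it here. The question of the comparison was whether these genes differed between *dyrk1a* CRISPR brains and uninjected control brains. *dyrk1a* encodes a kinase of cell cycle control and brain growth.

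RNA was measured in 3 CRISPR libraries and 3 control libraries, each from 3 pooled brains dissected at stage 46. CRISPR tadpoles had received Cas9 reagents against *dyrk1a* in each cell of the 2-cell embryo, and control tadpoles received no injection. The injection as such and the loss of *dyrk1a* thus cannot be told apart. The strain of the frogs is not given in the sources used here. Control tadpoles are labelled wild type, as were the frogs of the study. No allele other than the induced *dyrk1a* mutations is named for either group. Such founder animals are mosaic for many alleles, and the most strongly mutated brains, by genotyping of the rest of the body, were chosen for the CRISPR pools. The pools held separate animals, and p-values measure the spread between pools. In whole brains, fewer cells of a type and less RNA per cell cannot be told apart.

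Thyroid hormone reaches the brain mainly as thyroxine, which transporters carry into cells. Dio2 converts it to the active hormone triiodothyronine, and Dio3 inactivates both. The receptors bind DNA as pairs with a retinoid X receptor; without hormone they hold target genes down through corepressors, and with hormone they recruit coactivators. In *Xenopus*, rising hormone drives metamorphosis, and *thrb* and *klf9* are direct targets that respond early. At stage 46 the tadpole has just begun to feed and its thyroid gland has yet to reach the output of metamorphosis.

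Libraries held between 21564980 and 28100633 gene counts in CRISPR brains and between 9603583 and 35071943 in control brains, with control replicate 3 the shallowest. *dyrk1a* itself was at 16.8, 13.2 and 15.04 cpm (counts scaled to the library size with TMM factors, as in all values below) in CRISPR libraries, against 21.4, 10.8 and 14.8 cpm in control libraries. The groups overlapped (log2 fold change -0.07 ± 0.24 SE, edgeR adjusted p = 0.936), and a gene count does not show the mutations. All 10 neuronal markers were detected in both groups, with a summed level of 7585 to 7948 cpm in CRISPR and 8879 to 9156 cpm in control libraries. Of these, 4 of 10 were lower at an unadjusted p under 0.05 in edgeR, a level that 12.9% of all genes tested passed in either direction. The markers of other cells moved as well at that level: 8 of 10 for cycling cells were higher, at a summed 146 to 190 cpm in CRISPR against 84.7 to 109 cpm in control libraries. Of the 8 skeletal muscle markers found, 7 were lower, at 20.2 to 33.3 cpm in CRISPR against 65.0 to 217 cpm in control libraries, and 5 of 7 *hox* genes of the caudal nervous system were lower, at 87.1 to 126 cpm in CRISPR against 135 to 179 cpm in control libraries. On the first principal component, with 34.8% of the variance, CRISPR replicate 3 lay at one end (-42.7) and control replicate 2 at the other (31.0).

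None of the 8 measured thyroid hormone genes differed between the groups by more than the spread between pools. Under edgeR's quasi-likelihood test 0 of the 8 had an adjusted p under 0.05, beside 0.00663% of all 15076 genes tested. At an unadjusted p under 0.05 the count was again 0 of 8, beside 12.9% of all genes. DESeq2 called 0 of 8, beside 2.04% of the genes to which it gave an adjusted p. The levels of both groups overlapped for all 8, while 18.8% of all genes had groups that did not overlap. Log2 fold changes were positive for 6 genes and negative for 2, with a median of 0.23 beside 0.01 over all genes tested. Their 95% intervals together spanned folds between 0.467 and 2.77, and for each gene the folds inside its own interval remain possible.

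**Figure D1:**
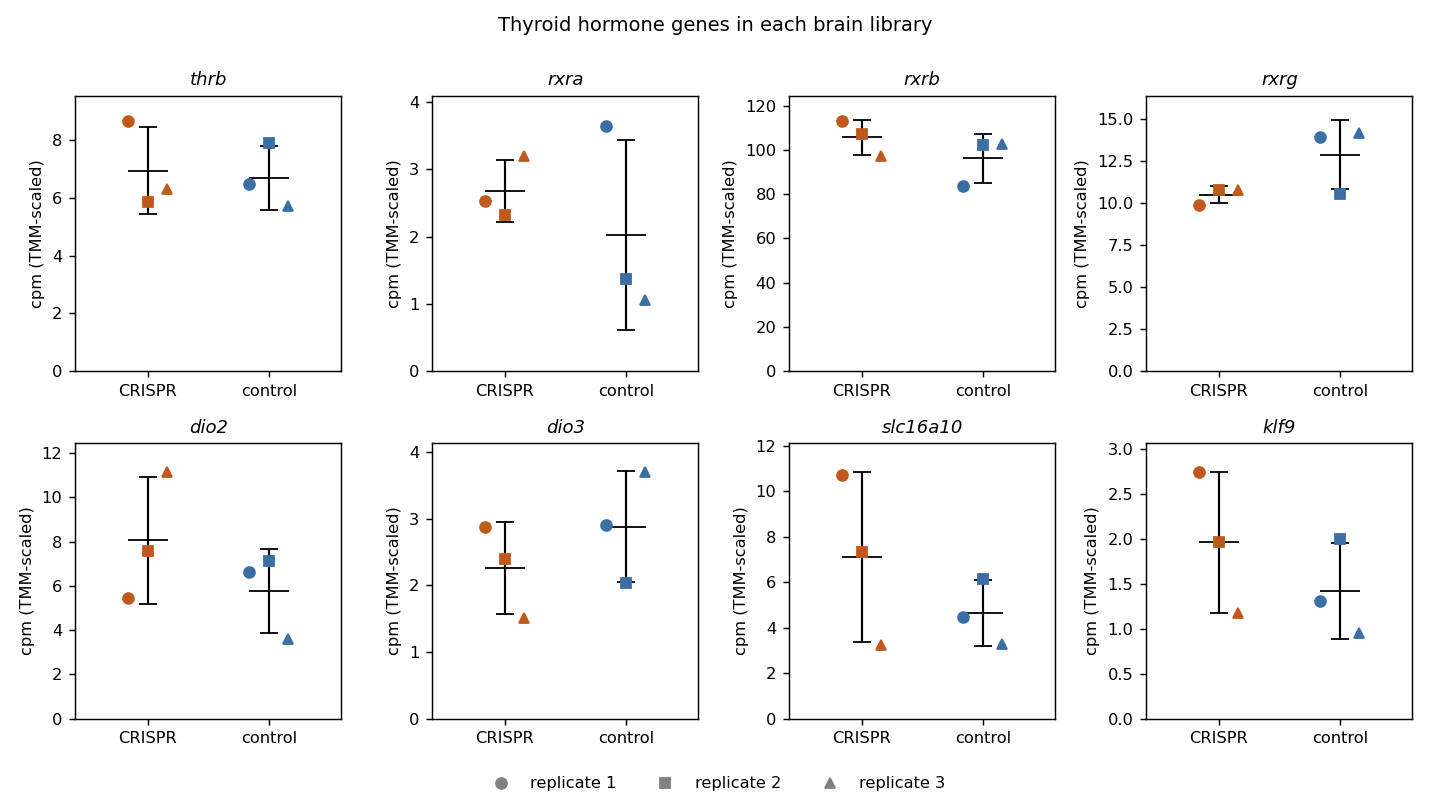
Levels of the 8 measured thyroid hormone genes in each library, in cpm scaled by TMM factors (vertical axes, each starting at 0), for CRISPR brains (orange) and control brains (blue). Symbols mark replicate 1 (circle), 2 (square) and 3 (triangle), long bars the mean of 3 libraries and whiskers the SD. The groups overlap in all 8 panels, and *slc16a10* lies between 3.24 and 10.7 cpm in CRISPR libraries.

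*thrb* (gene23089), the receptor that thyroid hormone induces in tadpoles, stood at 8.66, 5.85 and 6.30 cpm in CRISPR libraries, against 6.46, 7.90 and 5.71 cpm in control libraries. CRISPR replicate 1 was the highest and control replicate 3 the lowest, with the others in between in no order of group. The means were 6.94 ± 1.51 cpm in CRISPR brains (SD, n = 3) and 6.69 ± 1.11 cpm in control brains (SD, n = 3), a log2 fold change of 0.04 ± 0.23 (SE; edgeR adjusted p = 0.959). The 95% interval of the fold ran between 0.722 and 1.47. The sign of so small a value depended on single libraries: it was -0.16 without CRISPR replicate 1 and -0.05 without control replicate 3.

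*rxrb* (gene6566), the retinoid X receptor with the most reads, was at 113, 107 and 97.2 cpm in CRISPR libraries, against 83.5, 102 and 103 cpm in control libraries. It rested on 971 to 3220 reads a library, and the spread within a group was small: the highest CRISPR library was 1.16 times the lowest, and the highest control library 1.23 times the lowest. The log2 fold change was 0.14 ± 0.12 (edgeR adjusted p = 0.646), with a fold between 0.921 and 1.32 at 95%. This was the narrowest interval of the 8 genes. Without control replicate 1 the log2 fold change was 0.05, and without CRISPR replicate 1 it was 0.08.

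*rxrg* (gene2682), the form that in other vertebrates is found in particular neurons and in photoreceptors, was at 9.89, 10.8 and 10.8 cpm in CRISPR libraries, against 13.9, 10.5 and 14.2 cpm in control libraries. The CRISPR libraries lay close together, and control replicate 2 fell among them while the other 2 control libraries were higher. The log2 fold change of -0.29 ± 0.18 had the lowest unadjusted p of the 8 genes, 0.132 (edgeR adjusted p = 0.518). A refit, chosen after the data were seen, replaced the gene count with the summed counts of all exon bins but the most covered. There the log2 fold change of *rxrg* was -0.55 at an unadjusted p of 0.00742 and an edgeR adjusted p of 0.228. A read can count in several bins, so these sums, 213 to 645 a library, exceeded the gene's 134 to 477 reads. The change of count and the loss of the bin thus cannot be told apart in this value. The same refit of the other 6 genes with more than 1 bin gave unadjusted p between 0.257 and 0.887. Of the photoreceptor markers 7 of 11 were found, at a summed 30.8 to 67.7 cpm in CRISPR against 57.7 to 69.9 cpm in control libraries, with *rho*, *opn1sw1*, *opn1lw1* and *nrl* not among the symbols and 0 of the 8 models past an unadjusted p of 0.05, beside 12.9% of all genes. Their part in the values of *rxrg* was not tested.

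*rxra* (gene19795) was at 2.52, 2.32 and 3.20 cpm in CRISPR libraries, against 3.64, 1.37 and 1.06 cpm in control libraries. Control replicate 1 was above every other library and the other 2 control libraries below every CRISPR library, so that 1 control library made the groups overlap. Over all 6 libraries the log2 fold change was 0.32 ± 0.44 (edgeR adjusted p = 0.797). Without control replicate 1 it was 1.11, at an unadjusted p of 0.0171 and an edgeR adjusted p of 0.234. Without control replicate 2 it was 0.08 and without control replicate 3 also 0.08. Control replicate 3 held 10 reads of *rxra*, with an exact Poisson 95% interval of 4.80 to 18.4, which covers counting error only.

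The makeup of the retinoid X receptor reads was taken within each library, where depth cancels. *rxrg* held 7.89%, 8.98% and 9.68% of the summed reads of the 3 genes in CRISPR libraries, against 13.7%, 9.21% and 12.0% in control libraries. Control replicate 2 was again the control library inside the CRISPR range. The mean share was 8.85 ± 0.90% in CRISPR and 11.7 ± 2.29% in control brains (SD, n = 3 each), and an exact two-sided permutation test over libraries gave p = 0.20. Taken over exon bin counts, where a read can count in several bins, the share of *rxrg* was 8.68%, 9.58% and 10.2% in CRISPR libraries, against 16.1%, 10.7% and 13.6% in control libraries. The groups then did not overlap (exact permutation p = 0.10, n = 3 each), and the difference was -4.00 percentage points, against -2.81 over gene counts. The same change moved the difference in the share of *rxrb* to 3.82 percentage points, against 2.44 over gene counts. *rxrb* held 88.9 ± 1.34% in CRISPR and 86.4 ± 3.51% in control brains (exact permutation p = 0.40, n = 3 each). *rxra* held 2.27 ± 0.52% in CRISPR and 1.90 ± 1.48% in control brains (exact permutation p = 0.70, n = 3 each). With 3 libraries against 3 this test cannot go below 0.10, so it could not have passed 0.05 here. Shares of reads also depend on transcript length, which was not used, so the shares do not rank the receptors by molecules.

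**Figure D2:**
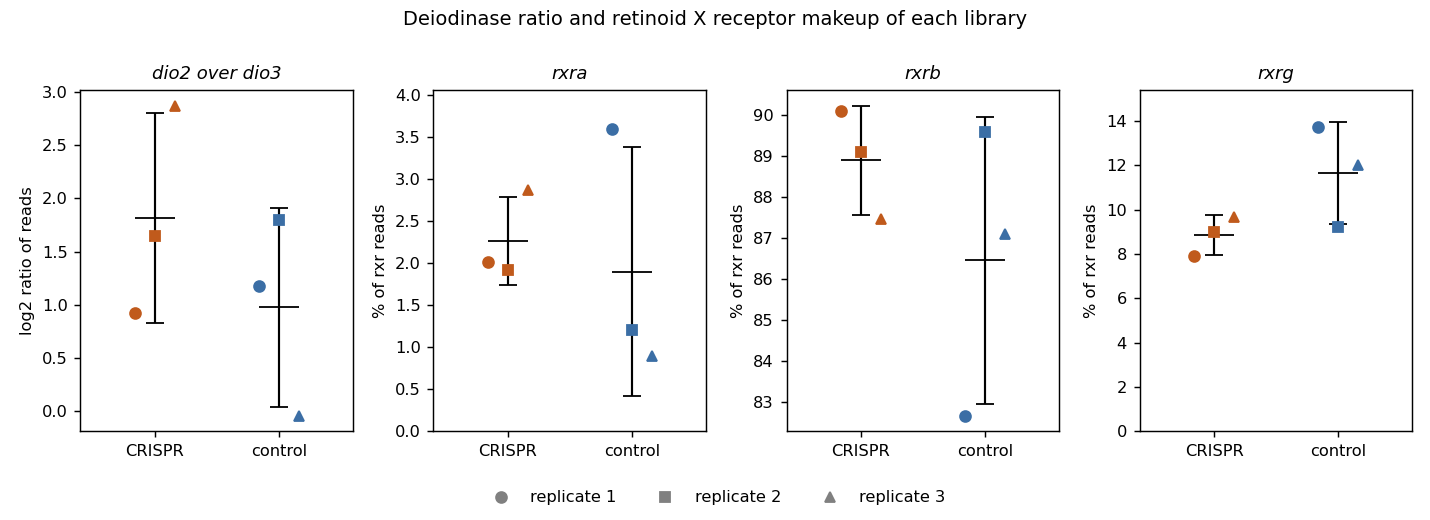
Measures taken within each library for CRISPR brains (orange) and control brains (blue): the log2 ratio of *dio2* to *dio3* reads, and the share of *rxra*, *rxrb* and *rxrg* in the summed reads of the 3 genes, in percent. Symbols mark replicates 1 to 3, long bars the mean of 3 libraries and whiskers the SD, and the vertical axis of *rxrb* does not start at 0. All 4 panels overlap, and control replicate 3 is the only library with fewer *dio2* than *dio3* reads.

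*dio2* (gene18211), the enzyme that makes the active hormone, was at 5.47, 7.56 and 11.1 cpm in CRISPR libraries, against 6.61, 7.11 and 3.60 cpm in control libraries. The highest level was in CRISPR replicate 3 and the lowest in control replicate 3, and CRISPR replicate 1 was below 2 of the control libraries. The means were 8.05 ± 2.87 cpm in CRISPR brains (SD, n = 3) and 5.77 ± 1.90 cpm in control brains (SD, n = 3), and the log2 fold change was 0.44 ± 0.31 (edgeR adjusted p = 0.584). It was 0.14 without CRISPR replicate 3 and 0.23 without control replicate 3. In mammals Dio2 in the brain is found mainly in astroglia and tanycytes. The markers of radial glia and astroglia found (7 of 9, without *s100b* and *aqp4*) summed to 4143 to 4839 cpm in CRISPR against 3236 to 4001 cpm in control libraries. An unadjusted p under 0.05 was reached by 4 that were higher and 1 that was lower, beside 12.9% of all genes. *glul*, the glutamine synthetase of astroglia, was at 100, 87.3 and 129 cpm in CRISPR libraries, against 57.7, 63.0 and 73.8 cpm in control libraries. Among CRISPR libraries it was highest in replicate 3, where *dio2* was highest, and among control libraries also in replicate 3, where *dio2* was lowest. Other markers of this list, named after their values were seen, differed in order. The glutamate transporter *slc1a3* and the progenitor factor *sox2* were lowest in replicate 3 of the CRISPR libraries, at 1276 and 312 cpm. *fabp7*, *gja1* and *slc1a2* were highest there, at 2332, 23.8 and 144 cpm. Among control libraries *slc1a2*, *gja1* and *slc1a3* were lowest in replicate 3, at 132, 11.1 and 1160 cpm, and *sox2* was highest there, at 320 cpm. Their part in the levels of *dio2* was not tested.

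*dio3* (gene25909), which inactivates the hormone, was at 2.88, 2.40 and 1.50 cpm in CRISPR libraries, against 2.91, 2.04 and 3.70 cpm in control libraries. The lowest level was in CRISPR replicate 3, where *dio2* was highest, and the highest in control replicate 3, where *dio2* was lowest. The log2 fold change was -0.32 ± 0.35 (edgeR adjusted p = 0.747), on 32 to 100 reads a library. It was -0.09 without CRISPR replicate 3, -0.13 without control replicate 3, -0.54 without CRISPR replicate 1 and -0.52 without control replicate 2.

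The reads of both enzymes were therefore compared within libraries. Transcript length was not used, so their ratio is not one of molecules. There were 1.90, 3.15 and 7.41 *dio2* reads for each *dio3* read in CRISPR libraries, against 2.27, 3.49 and 0.971 in control libraries. On the log2 scale the ratio averaged 1.81 ± 0.98 in CRISPR and 0.98 ± 0.93 in control brains (SD, n = 3 each), a difference of 0.84 (exact two-sided permutation p = 0.50). The extremes were the replicate 3 libraries of both groups, and the other 4 libraries lay between 0.92 and 1.79. Leaving out CRISPR replicate 3 gave a difference of 0.31 and leaving out control replicate 3 one of 0.33, each with an exact permutation p of 0.90 (n = 2 against 3). Leaving out CRISPR replicate 1 gave 1.28, the highest.

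*slc16a10* (gene21655), the monocarboxylate transporter of thyroid hormone and aromatic amino acids, had the largest fold change of the 8 genes. It was at 10.7, 7.34 and 3.24 cpm in CRISPR libraries, against 4.46, 6.16 and 3.28 cpm in control libraries. CRISPR replicates 1 and 2 were above every control library, and CRISPR replicate 3 was the lowest of the 6, just below control replicate 3. The means were 7.09 ± 3.73 cpm in CRISPR brains (SD, n = 3) and 4.63 ± 1.45 cpm in control brains (SD, n = 3), a log2 fold change of 0.60 ± 0.39 (edgeR adjusted p = 0.549). Without CRISPR replicate 3 it was 0.93 (unadjusted p = 0.0105, edgeR adjusted p = 0.325), and without CRISPR replicate 1 it was 0.16. Of the 5 red blood cell markers found, 4 stood in the same order as *slc16a10* among CRISPR libraries, *hbe1* being the other, and 0 of the 5 did so among control libraries. *alas2*, the heme synthesis enzyme of erythroid cells, was at 168, 102 and 42.5 cpm in CRISPR libraries, against 88.5, 159 and 110 cpm in control libraries. The 5 markers, of 8 listed, summed to 138 to 392 cpm in CRISPR against 193 to 318 cpm in control libraries, with *hba1*, *hbg1* and *hbg2* not among the symbols, and their part in the levels of *slc16a10* was not tested.

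*klf9* (gene1661), a zinc finger factor that thyroid hormone induces directly, was at 2.74, 1.97 and 1.17 cpm in CRISPR libraries, against 1.31, 2.00 and 0.952 cpm in control libraries. Within each group its libraries stood in the same order as those of *slc16a10*. The log2 fold change was 0.43 ± 0.41 (edgeR adjusted p = 0.701). It rested on 25 to 78 reads in CRISPR libraries and on 9 to 48 in control libraries, and the 9 reads of control replicate 3 had an exact Poisson 95% interval of 4.12 to 17.1. Without CRISPR replicate 1 the log2 fold change was 0.10, and without control replicate 2 it was 0.75, neither with an adjusted p under 0.05.

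The exon counts of the same libraries showed where in each gene model the reads lay. An exon bin is a stretch of exon with the same set of transcripts along its length. The 8 genes held 81 bins, of which 69 in 7 genes could be tested for a change in their share of the gene's counts, while *dio3* had a single bin. Of these 69, 0 passed an adjusted p under 0.05 in diffSpliceDGE of edgeR, beside 0% of the 214537 bins tested in all, and 0 had an unadjusted p under 0.05, beside 1.07% of all bins. With limma after voom 0 of them passed as well, beside 1 bin called among all bins. There 1 of the 69 had an unadjusted p under 0.05, and the share of all bins at that level is not given for this test. In diffSpliceDGE without CRISPR replicate 1, 2 of 68 bins had an unadjusted p under 0.05, and 0 were called.

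Reads of *thrb* lay mostly in its last bin, number 15, with 83.6%, 73.2% and 65.2% of its bin counts in CRISPR libraries, against 81.3%, 86.3% and 61.6% in control libraries. The lowest p among the tested bins was that of *thrb* bins 4 and 5 (0.0842), which held the same counts: 2, 5 and 6 in CRISPR libraries, against 1 in each control library. As a share these were 0.712%, 2.98% and 3.31% in CRISPR libraries, against 0.389%, 0.472% and 1.37% in control libraries, so the groups overlapped, on very few reads. *rxra* was alike in form, with 69.8% to 97.1% of its counts in bin 12 in CRISPR and 75.0% to 87.7% in control libraries. The level of these 2 receptors thus rested mainly on 1 stretch of exon. Over the summed counts of their other bins, where a read can count in several bins, the log2 fold change of *thrb* was 0.31 ± 0.42. That of *rxra* was 0.11 ± 0.76.

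*rxrg* was the gene with the most bins set apart. Bin 8 held 6.29%, 6.17% and 5.95% of its counts in CRISPR libraries, against 4.53%, 4.23% and 4.10% in control libraries (unadjusted p = 0.174 in diffSpliceDGE). Bin 14 held 3.78%, 2.55% and 3.10% in CRISPR libraries, against 5.27%, 5.70% and 4.10% in control libraries (unadjusted p = 0.103 in diffSpliceDGE). The groups did not overlap in either bin, nor in *rxrg* bins 12 and 15 or *slc16a10* bin 5, named after their shares were seen. That made 5 of the 69 bins (7.25%), beside 10.2% of all bins tested.

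**Figure D3:**
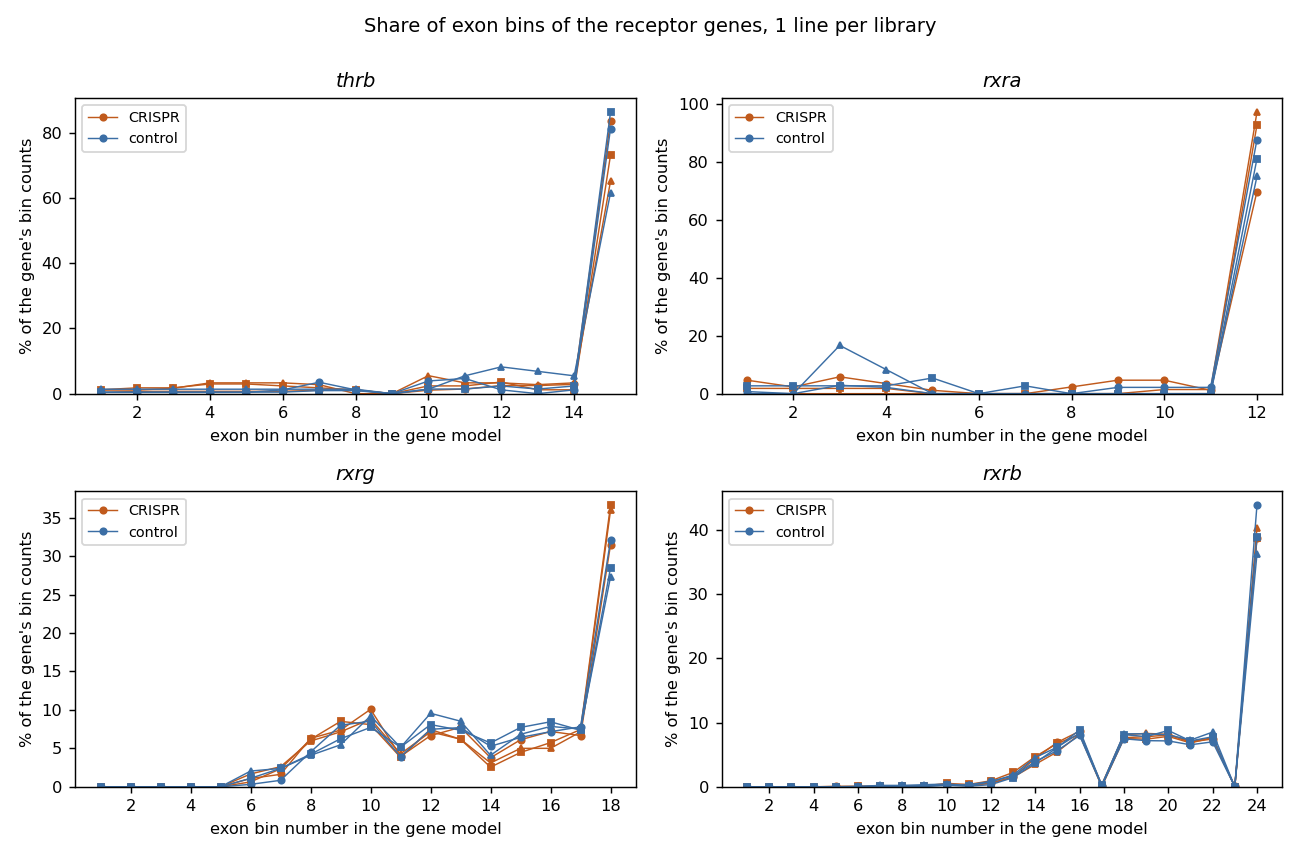
Share of each exon bin in the bin counts of its gene model (vertical axis, percent) along the bins of the receptor genes *thrb*, *rxra*, *rxrg* and *rxrb* (horizontal axis, bin number), with 1 line for each of 3 CRISPR libraries (orange) and 3 control libraries (blue) and symbols for replicates 1 to 3. The last bin holds the largest share in all 4 genes, 61.6% to 86.3% over the libraries for *thrb* and 69.8% to 97.1% for *rxra*. The groups overlap in the last bin of each gene and lie apart in 4 bins of *rxrg*. Of the 69 tested bins of the measured thyroid hormone genes 7.25% lay apart, beside 10.2% of all bins tested.

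Around the 8 genes, 8 lists of pathway genes held 86 symbols, of which 64 were found, in 66 gene models. These were genes of hormone uptake and binding, deiodinase synthesis and turnover, corepressors, coactivators, hormone response, the hypothalamus, pituitary and thyroid axis, corticosteroid signalling, and other partners of the retinoid X receptors. In edgeR 0 of the 66 were called higher and 1 lower, beside 0.00663% of all genes tested. DESeq2 gave an adjusted p to 63 of them and called 1 higher and 4 lower. That was 7.94%, beside 2.04% of all genes to which it gave an adjusted p. The count in edgeR was 0 without CRISPR replicate 1, CRISPR replicate 3, control replicate 2 or control replicate 3. With an unadjusted p under 0.05 there were 4 higher and 8 lower genes (18.2%, beside 12.9% of all genes tested). The groups did not overlap for 3 higher and 13 lower genes (24.2%, beside 18.8% of all genes). Log2 fold changes were positive for 32 and negative for 34, with a median of -0.03.

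*mbp*, a myelin gene of the response list, was at 117, 123 and 107 cpm in CRISPR libraries, against 112, 158 and 120 cpm in control libraries, and its groups overlapped (log2 fold change -0.17 ± 0.14, edgeR adjusted p = 0.619). Among the markers of oligodendrocytes *cnp*, an enzyme of myelin, was at 1.26, 1.75 and 1.03 cpm in CRISPR libraries, against 1.98, 2.99 and 1.80 cpm in control libraries, with no overlap at these low levels (edgeR adjusted p = 0.405). The lineage factor *sox10* was at 23.2, 22.6 and 18.3 cpm in CRISPR libraries, against 20.3, 24.3 and 21.1 cpm in control libraries. Of the 7 markers of oligodendrocytes, 2 had positive and 5 negative log2 fold changes. At the unadjusted level of 0.05, 1 rose and 1 fell in CRISPR brains, beside 12.9% of all genes. The one that rose was *mpz*, at 7.68, 2.58 and 8.18 cpm in CRISPR libraries, against 2.10, 3.04 and 2.86 cpm in control libraries. Its groups overlapped (log2 fold change 1.22 ± 0.41, edgeR adjusted p = 0.268). The genes named here were picked after their values were seen, and the part of cell numbers in their levels was not tested.

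Among the response genes of tadpoles, 12 of 15 models had positive log2 fold changes, with a list median of 0.30 beside 0.01 over all genes. An unadjusted p under 0.05 was reached by 4 with higher and 1 with lower levels, beside 12.9% of all genes tested. *thibz*, a leucine zipper factor that thyroid hormone induces in tadpoles, was near the detection limit of the filter, at 1.40, 1.005 and 0.799 cpm in CRISPR libraries, against 0.437, 0.998 and 0.635 cpm in control libraries. Its log2 fold change was 0.65 ± 0.46 (edgeR adjusted p = 0.581). *mmp11*, the metalloproteinase stromelysin of tissue remodelling, was at 1.51, 2.97 and 3.38 cpm in CRISPR libraries, against 0.932, 1.37 and 2.65 cpm in control libraries (log2 fold change 0.76 ± 0.46, edgeR adjusted p = 0.514). *klf13*, the paralog of *klf9*, was at 10.3, 9.74 and 7.33 cpm in CRISPR libraries, against 9.49, 5.82 and 7.41 cpm in control libraries (0.26 ± 0.23 on the log2 scale, edgeR adjusted p = 0.671). For all 3 the groups overlapped.

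The 4 response genes that were higher at the unadjusted level were 3 metalloproteinases and *gadd45g*, a growth arrest gene. *mmp14*, a metalloproteinase of the cell membrane, was at 61.5, 61.6 and 49.2 cpm in CRISPR libraries, against 36.7, 39.7 and 45.0 cpm in control libraries, with every CRISPR library above every control library. Its log2 fold change of 0.51 ± 0.14 had an adjusted p of 0.174 in edgeR and of 0.040 in DESeq2. *mmp9.1*, a gelatinase, was at 30.3, 15.8 and 19.9 cpm in CRISPR libraries, against 8.47, 16.8 and 5.61 cpm in control libraries, where control replicate 2 reached into the CRISPR range (log2 fold change 1.07 ± 0.36, edgeR adjusted p = 0.269). It ranged between 0.76 and 1.61 when single libraries were left out, and reads of the like-named copy *mmp9.2* could be split between both models. *mmp2* had a log2 fold change of 0.51 ± 0.22 and *gadd45g* of 0.30 ± 0.13, both with an edgeR adjusted p of 0.357 and with overlapping groups.

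**Figure D4:**
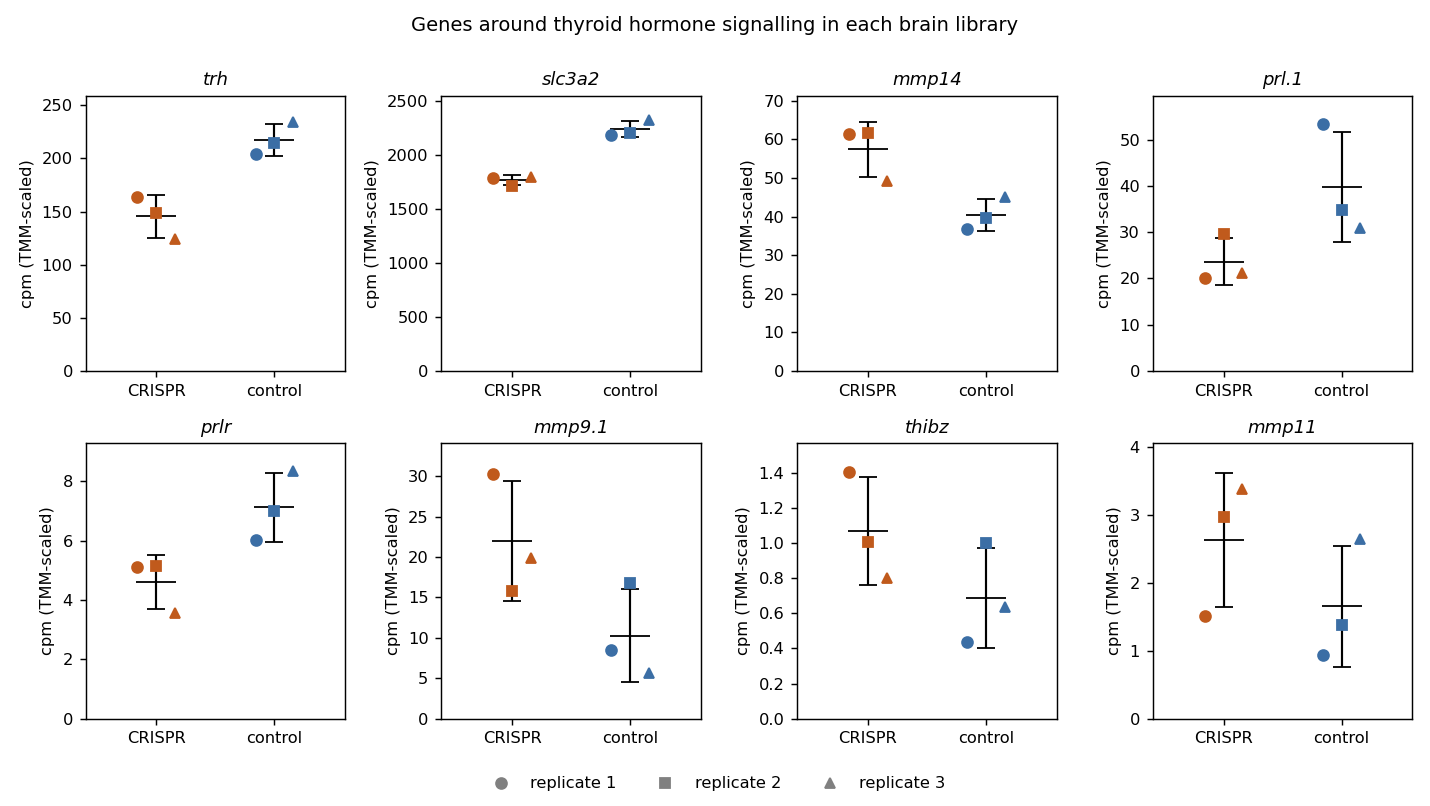
Levels of 8 pathway genes in each library, in cpm scaled by TMM factors (vertical axes, each starting at 0), for CRISPR brains (orange) and control brains (blue). Symbols mark replicates 1 to 3, long bars the mean of 3 libraries and whiskers the SD. The groups are apart for *trh*, *slc3a2*, *mmp14*, *prl.1* and *prlr* and overlap for *mmp9.1*, *thibz* and *mmp11*. Of these, *slc3a2*, *mmp14*, *prl.1*, *prlr* and *mmp9.1* were picked for a small unadjusted p, so the panels do not show how often groups lie apart. That share was 24.2% of the 66 pathway models, beside 18.8% of all genes.

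In the axis of hypothalamus, pituitary and thyroid, 9 of 12 models had negative log2 fold changes, with a list median of -0.30, and an unadjusted p under 0.05 was reached by 3 with lower and 0 with higher levels, beside 12.9% of all genes. *trh*, the releasing hormone that in frogs acts on prolactin and melanotropin rather than on the thyroid at these stages, was at 164, 149 and 124 cpm in CRISPR libraries, against 204, 214 and 234 cpm in control libraries, with no overlap. Its log2 fold change was -0.58 ± 0.12, with an adjusted p of 0.102 in edgeR and of 0.00313 in DESeq2. *prl.1*, a prolactin gene, was at 20.1, 29.6 and 21.3 cpm in CRISPR libraries, against 53.3, 34.8 and 31.0 cpm in control libraries (log2 fold change -0.76 ± 0.22, adjusted p 0.220 in edgeR and 0.0433 in DESeq2). The prolactin receptor *prlr* was at 5.12, 5.16 and 3.57 cpm in CRISPR libraries, against 6.03, 6.99 and 8.36 cpm in control libraries (-0.61 ± 0.24 on the log2 scale, edgeR adjusted p = 0.336).

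For *crh* and *tshb* the groups overlapped. *crh*, the thyrotropin releaser of tadpoles, was at 7.50, 3.28 and 3.95 cpm in CRISPR libraries, against 4.51, 5.82 and 8.47 cpm in control libraries (log2 fold change -0.31 ± 0.35, edgeR adjusted p = 0.747). Without CRISPR replicate 1 it was -0.77 (unadjusted p = 0.0417, edgeR adjusted p 0.463). *tshb*, the beta subunit of thyrotropin, was at 12.2, 10.3 and 7.28 cpm in CRISPR libraries, against 7.92, 11.4 and 15.2 cpm in control libraries (-0.18 ± 0.27 on the log2 scale, edgeR adjusted p = 0.814). The receptors of both releasing hormones, picked after their values were seen, lay lower in every CRISPR library than in any control library, but did not pass an unadjusted p of 0.05. Of the 12 models of this list, 5 had groups that did not overlap, all lower in CRISPR, beside 18.8% of all genes in either direction. *trhr* was at 3.93, 4.76 and 5.26 cpm in CRISPR libraries, against 5.77, 6.49 and 6.67 cpm in control libraries (-0.44 ± 0.22 on the log2 scale, edgeR adjusted p = 0.434). *crhr1.2* was at 42.4, 42.3 and 32.2 cpm in CRISPR libraries, against 44.0, 45.3 and 54.5 cpm in control libraries (-0.29 ± 0.15 on the log2 scale, edgeR adjusted p = 0.435). The 8 pituitary markers found of 10 (without *gh* and *fshb*, with prolactin and *tshb*) summed to 461 to 548 cpm in CRISPR against 582 to 691 cpm in control libraries. *pomc*, the precursor of corticotropin and melanotropin, made up most of this sum, at 369, 340 and 331 cpm in CRISPR libraries, against 498, 412 and 482 cpm in control libraries (log2 fold change -0.42, adjusted p 0.127 in edgeR and 0.0342 in DESeq2). The share of pituitary tissue in the dissected brains was not tested.

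Of the genes for hormone uptake and binding, 1 of 6 passed an unadjusted p under 0.05, beside 12.9% of all genes. *slc3a2*, the heavy chain that brings amino acid transporters to the membrane, was at 1784, 1710 and 1796 cpm in CRISPR libraries, against 2186, 2205 and 2326 cpm in control libraries, with no overlap. The log2 fold change of -0.34 ± 0.07 had an adjusted p of 0.104 in edgeR and of 0.035 in DESeq2. Of its light chains, *slc7a5* was at 148, 168 and 128 cpm in CRISPR libraries, against 122, 160 and 174 cpm in control libraries (log2 fold change -0.03 ± 0.15). *slc7a8*, named after its values were seen, was at 971, 933 and 923 cpm in CRISPR libraries, against 979, 1094 and 1144 cpm in control libraries. Its log2 fold change was -0.19 ± 0.08 (edgeR adjusted p = 0.386). The groups did not overlap for 2 of the 6 genes, both lower in CRISPR, beside 18.8% of all genes. *slco1c1*, a transporter of thyroxine at the blood-brain barrier, reached at most 2.26 cpm in CRISPR and 1.38 cpm in control libraries, and *crym*, which binds the hormone in the cytosol, at most 1.61 cpm in CRISPR and 1.21 cpm in control libraries. Both had standard errors above 0.5 on the log2 scale, so these pools say little of them. The carrier *ttr* was not among the symbols.

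In deiodinase synthesis and turnover 1 of 6 genes passed the unadjusted level, beside 12.9% of all genes: *wsb1*, which in mammals and birds marks Dio2 for degradation, was at 632, 668 and 673 cpm in CRISPR libraries, against 738, 800 and 814 cpm in control libraries (log2 fold change -0.25 ± 0.08, adjusted p 0.250 in edgeR and 0.234 in DESeq2). The deubiquitinases *usp33* and *usp20*, which in mammals reverse that mark, were picked after their values were seen and had log2 fold changes of -0.16 and -0.15 with overlapping groups. In the whole list the groups did not overlap for 1 higher and 2 lower genes, *wsb1* among the lower, beside 18.8% of all genes. The symbol *dio1* was not found.

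Of the corepressors and coactivators of the receptors 0 of 6 and 0 of 9 passed an unadjusted p under 0.05 in edgeR, beside 12.9% of all genes. The groups separated in none of them, beside 18.8% of all genes, and lists this short say little against such shares. The main corepressor *ncor1* was at 169, 158 and 163 cpm in CRISPR libraries, against 169, 154 and 144 cpm in control libraries (log2 fold change 0.07 ± 0.10, edgeR adjusted p = 0.797). The coactivator *ncoa1* had a log2 fold change of -0.23 ± 0.19 (edgeR adjusted p = 0.637). The corepressor *hr*, itself a response gene, was not among the symbols.

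Corticosteroids act with thyroid hormone in metamorphosis. Of the 5 genes of their receptors and targets all had negative log2 fold changes, with a median of -0.08, and 1 passed an unadjusted p under 0.05, beside 12.9% of all genes. This was the kinase *sgk1*, a corticosteroid target named after its values were seen, at 175, 150.0 and 112 cpm in CRISPR libraries, against 179, 190 and 178 cpm in control libraries (log2 fold change -0.32 ± 0.15, edgeR adjusted p = 0.386), with no overlap. For both receptors the groups overlapped. *nr3c1* was at 43.8, 41.6 and 47.3 cpm in CRISPR libraries, against 45.5, 42.1 and 48.1 cpm in control libraries (log2 fold change -0.03 ± 0.12, edgeR adjusted p = 0.943). *nr3c2* had a log2 fold change of -0.07 ± 0.26 (edgeR adjusted p = 0.942). Among the other partners of the retinoid X receptors 1 of 7 passed the unadjusted level, beside 12.9% of all genes, the retinoic acid receptor *rarb*, at 22.1, 18.8 and 17.5 cpm in CRISPR libraries, against 22.2, 28.7 and 26.3 cpm in control libraries (-0.40 ± 0.16 on the log2 scale, edgeR adjusted p = 0.341).

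**Figure D5:**
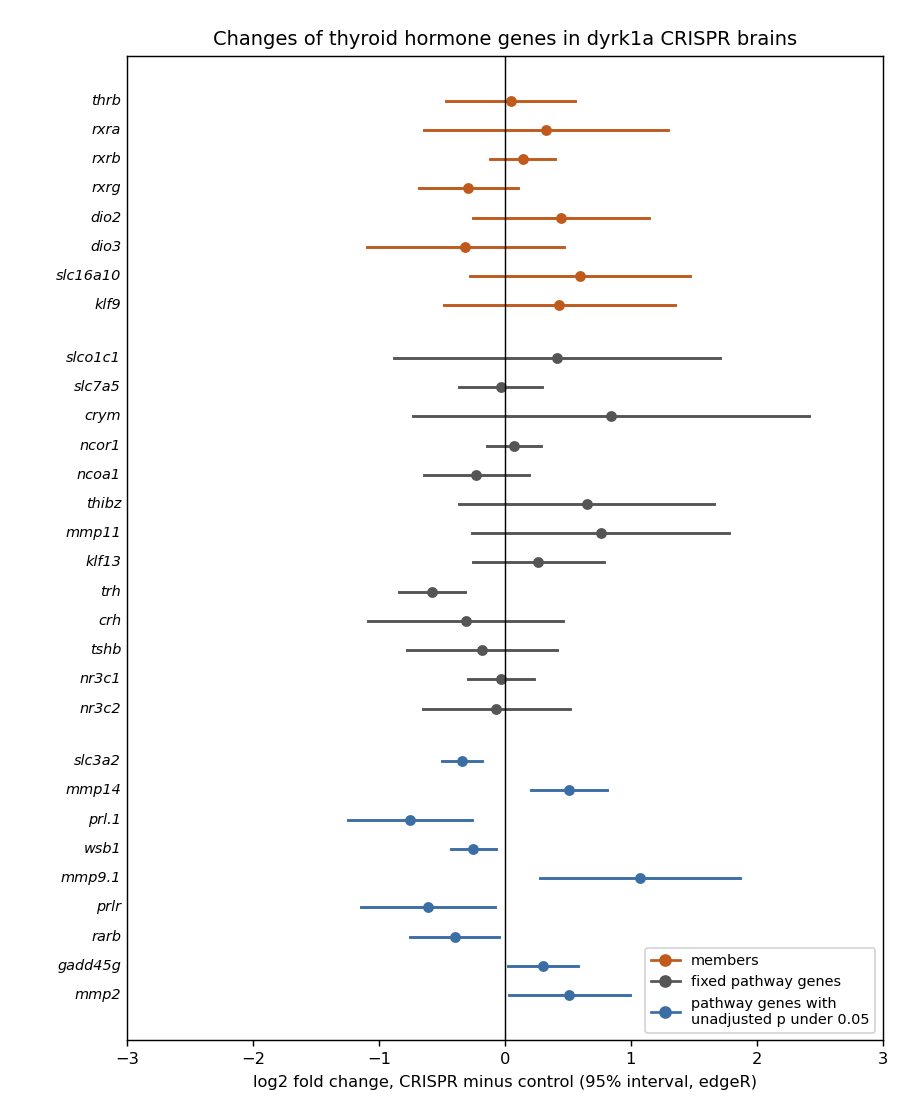
Log2 fold changes, CRISPR minus control, with 95% intervals from edgeR, for the 8 measured thyroid hormone genes (orange), 13 pathway genes (grey) and 9 other pathway genes picked for a small unadjusted p (blue). The intervals of all 8 thyroid hormone genes cross 0, and of the grey genes only that of *trh* does not. The blue genes were picked by p and so lie off 0, and none of the genes drawn has an edgeR adjusted p under 0.05.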

How the data were processed

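The 6 libraries were poly(A)-selected and unstranded, 3 from *dyrk1a* CRISPR and 3 from control brains at stage 46, grouped by their titles. Per the methods of the study, the alignment was made by STAR (v2.7.3) against XenBase assembly v9.1. Gene counts were deposited without normalization for 34229 models, of which 23902 had a count. The authors also deposited log2 values, which equal log2(cpm + 1) of these counts, for 15076 models that pass the cpm filter below. The log2 table was the only one with gene symbols, for 12509 of these models, so members and lists were matched there. Raw counts per exon bin were deposited on 267751 lines, with 5 special counters (5.49% to 6.12% of counts) that stayed out of sizes and tests. Without strand, reads of overlapping genes cannot be told apart. The reference annotation at hand was of another build, so no coordinates, lengths or sequences were used. Read numbers set beside each other or summed over genes thus do not rank genes by molecules.

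The filter of the study was kept (over 1 cpm in at least 3 libraries), and raw counts were tested with edgeR 4.0.16 in R 4.3.3 (TMM, quasi-likelihood F test, Benjamini-Hochberg over all 15076 models, threshold 0.05). The biological coefficient of variation shared by all genes was 17.6%. Fold changes on the log2 scale are CRISPR minus control, with SE and 95% intervals from the fit. Exon bins with a count in models with at least 5 counts were tested with diffSpliceDGE. Ratios used a pseudocount of 0.5 and exact two-sided permutation tests over libraries. Alternatives were DESeq2 1.42.0, limma 3.58.1 (voom, and the deposited log2 values), RLE and upper-quartile factors, other filters, the replicate number as a block, and leaving out each library. Scripts were tested on simulated data.

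The members and lists were chosen with earlier results of these data known. By a fixed rule the text names all members, *dyrk1a*, 18 set pathway genes, at most 10 other pathway genes with the smallest unadjusted p under 0.05, at most 3 genes per marker list, and the 4 member bins with the smallest p. Names outside the rule are given as such, except the most covered bins of *thrb* and *rxra*, which were also named. A few genes of these lists are not reported here by name, and the counts include them.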

Additional observations from a re-analysis of the deposited data

How the results depend on the processing

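The 8 thyroid hormone genes kept their direction and stayed above an adjusted p of 0.05 in all 71 refits that kept every library, and the lowest adjusted p in any refit was 0.228. Of the 48 refits without 1 library, 2 turned the sign, both for *thrb*, which ranged between -0.16 and 0.18. The number of thyroid hormone genes called was 0 under each of these settings, as was that of their exon bins. Over all genes, 1 was called by edgeR, 295 by DESeq2, 180 without a filter on low counts, and between 0 and 6 without single libraries. Among the pathway genes 1 was called by edgeR, 5 by DESeq2, 2 without a filter, and between 0 and 1 without single libraries. The 4 pathway genes called by DESeq2 alone were *trh*, *slc3a2*, *mmp14* and *prl.1*. The cause of these differences between tools and filters was not tested.

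Log2 fold changes of other named genes that turned sign without single libraries ranged between -0.11 and 0.86 for *slco1c1*, -0.169 and 0.0717 for *slc7a5*, -0.399 and 0.0493 for *tshb*, -0.0810 and 0.0139 for *nr3c1*, and -0.27 and 0.23 for *nr3c2*. The difference in the share of *rxra* ranged between -0.13 and 1.22 percentage points. The planned ratio of *thra* to *thrb* was not run, since *thra* had no line.

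The replicate numbers come from the titles, which name no pairing. Same-numbered libraries deviated from their group means with correlations of -0.110, 0.186 and -0.039 over genes. With 3 libraries a group these values cannot exclude a pairing, and the main fit used none. With the replicate number as a block edgeR called 3 genes in all, 0 thyroid hormone genes and 1 pathway gene, and not every library correlated best with its own number.

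The limits are the 3 pools a group and the read numbers of *klf9*, *rxra* and *dio3*, at most 78, 125 and 100 reads in a library.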

Other observations

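A further 8 genes of the table carry thyroid hormone in their annotated names and were picked for that after the data were seen. Of these 1 had an unadjusted p under 0.05, beside 12.9% of all genes. *thdl18*, named as a gene that thyroid hormone down-regulates, was at 1.40, 2.88 and 0.987 cpm in CRISPR libraries, against 3.67, 4.66 and 2.54 cpm in control libraries. CRISPR replicate 2 was above control replicate 3, so the groups overlapped (log2 fold change -1.07 ± 0.41, edgeR adjusted p = 0.332). *thrsp*, a lipogenic gene that responds to thyroid hormone in mammals, was at 7.05, 5.85 and 6.30 cpm in CRISPR libraries, against 5.53, 3.91 and 4.34 cpm in control libraries. Every CRISPR library was above every control library, at a log2 fold change of 0.47 ± 0.23 (edgeR adjusted p = 0.415). *thul16*, named as up-regulated by the hormone, was at 33.6, 32.4 and 37.9 cpm in CRISPR libraries, against 33.1, 33.3 and 38.2 cpm in control libraries (log2 fold change -0.01 ± 0.13). The receptor-associated *thrap3* and the receptor-interacting *trip4*, *trip11*, *trip12* and *trip13* had log2 fold changes between -0.20 and 0.26, with overlapping groups.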
